A study of Mus musculus with 11 samples.

Results

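T and B lymphocytes were followed through 9 marker genes in the epididymal adipose tissue and the pancreas of mice with obesity-related alcohol-induced acute pancreatitis (OA-AP). The genes were chosen by name, as the rows of the deposited count tables with the symbols Cd3e, Cd3d, Cd4, Cd8a and Foxp3 for T cells and Ms4a1, Cd79a, Cd79b and Ighm for B cells, and all 9 were found in both tables among 55350 genes listed in either. All mice were male wild-type C57BL/6J, 16 weeks old by the labels. Control mice ate a chow diet with 10 kcal% fat and received saline. OA-AP mice, labelled Model, ate a high-fat diet with 60 kcal% fat for 12 weeks and received 2 intraperitoneal injections of ethanol at 2 g/kg, 1 h apart, with tissue taken 12 h after the first. Diet and ethanol therefore differ together between the groups and cannot be told apart. There were 11 RNA-seq libraries, 6 of adipose tissue (3 control, 3 OA-AP) and 5 of pancreas (2 control, 3 OA-AP). The labels do not say which tissues came from the same mouse. Whole tissue was sequenced, so fewer cells of a type and less RNA per cell cannot be told apart, and p-values measure the spread between these samples only.

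A T cell recognises antigen through its receptor, whose chains reach the surface and signal only together with the CD3 proteins, and CD4 or CD8 helps the receptor to bind MHC class II or class I. A B cell binds antigen through membrane immunoglobulin, at first IgM, which signals through the paired proteins CD79A and CD79B. Visceral fat of lean mice holds resident regulatory T cells and innate-like B cells that make natural IgM, partly in small lymphoid clusters, whereas a healthy pancreas holds few lymphocytes.

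**Figure D1:**
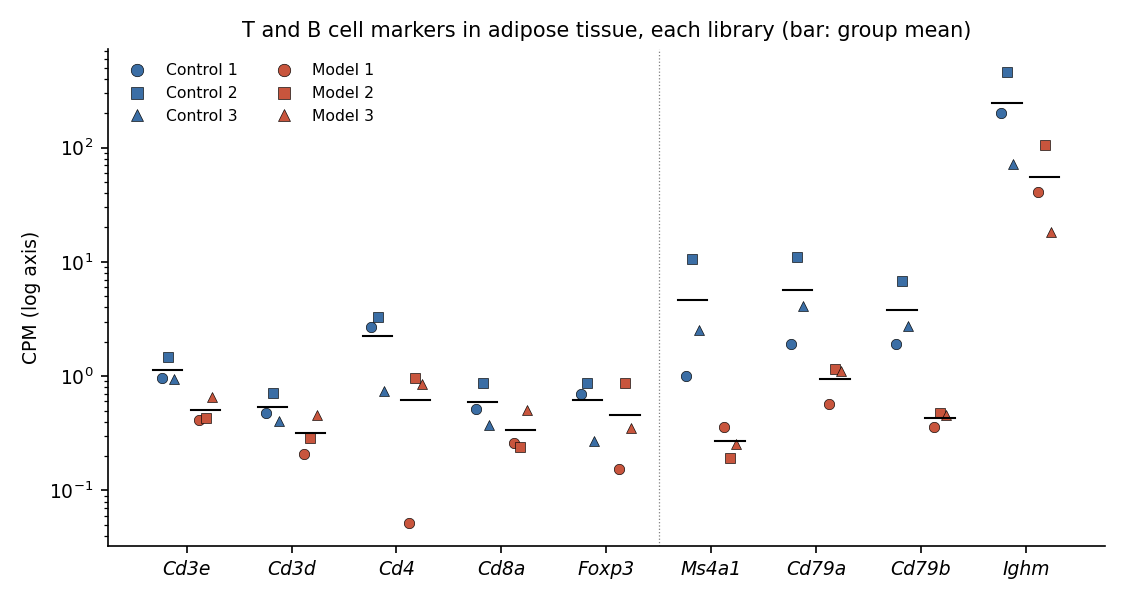
CPM of the 9 markers in each of the 6 adipose libraries on a log axis, with controls in blue, OA-AP (Model) in red and a bar at each group mean. For Cd3e, Ms4a1, Cd79a and Cd79b all 3 OA-AP libraries lie below all 3 control libraries, and for the other 5 genes the groups overlap.

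Adipose libraries held 20825177 to 27928097 counts on genes and pancreas libraries 14188832 to 17238919. Levels are given as CPM, counts relative to the library size as scaled by TMM in edgeR, and 3 counts, taken as the limit of detection, equal 0.102 to 0.155 CPM in adipose tissue and 0.157 to 0.299 CPM in the pancreas. Such limits cover counting error only. A list of 10 adipocyte genes took 3.54% to 3.83% of the adipose counts, and a list of 19 acinar genes took 52.5% to 70.8% of the pancreas counts, as the tissue labels say. One adipose library stood apart: the acinar genes took 0.907% of the counts in control 2 and at most 0.00183% in the other 5. Control 2 was also the highest of the 6 libraries for each of the 9 markers, so results are given with and without it.

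In adipose tissue Ms4a1, Cd79a and Cd79b of the B cell markers and Cd3e of the T cell markers were lower in OA-AP mice. Of the 9 genes, 8 passed the filter on low counts and 4 were called lower while 0 were called higher, a call being a change of 1.5-fold or more with an adjusted p-value below 0.05. The called genes were Cd3e, 1 of 4 tested T cell markers, and Ms4a1, Cd79a and Cd79b, 3 of 4 B cell markers. Over all 15839 tested genes 12.9% were called lower, 12.2% higher and 25.1% in either direction. The median log2 fold change was -1.98 over the 8 tested markers, -0.97 over the T cell and -2.85 over the B cell markers, against -0.01 over every gene tested. Without control 2 the test called 3 markers lower, Ms4a1, Cd79a and Cd79b.

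Cd79b, the signalling beta chain of the B cell receptor, had the smallest adjusted p-value of the markers. Its gene (ENSMUSG00000040592) lies on chromosome 11 of GRCm38, 106311341 to 106314762, minus strand. The control libraries 1 to 3 had 1.92, 6.78 and 2.72 CPM and the OA-AP libraries 0.363, 0.480 and 0.454 CPM, from 52, 162 and 80 counts against 7, 10 and 9. The groups did not overlap, with OA-AP lower, as in 25.5% of all tested genes, and the OA-AP libraries lay within a narrow range while the controls were spread. The means were 3.81 ± 2.61 and 0.432 ± 0.0618 CPM (SD, n = 3 each), and the gene fell by 3.11 on the log2 scale (SE, the standard error, 0.56; adjusted p = 0.00611, edgeR quasi-likelihood test), or 8.65-fold. Without control 2 the log2 fold change was -2.40 (adjusted p = 0.00575). It was called in 12 of the 12 alternative settings that tested it. The setting that asked for 10 counts in every library left it untested.

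Cd79a (ENSMUSG00000003379, chromosome 7, 24897381 to 24902197, plus strand), which encodes the alpha chain of the same pair, was at 1.92, 11.1 and 4.11 CPM in the controls and at 0.570, 1.15 and 1.11 CPM in OA-AP. No OA-AP library reached the lowest control. The means were 5.72 ± 4.82 and 0.944 ± 0.325 CPM (SD, n = 3 each), and the log2 fold change was -2.58 (SE 0.69, adjusted p = 0.0270). Without control 2 it was -1.66 (adjusted p = 0.0379). The call was lost in 5 of 13 alternatives, among them the test without a filter on low counts and the leaving out of control 3 or of any one OA-AP library, with adjusted p-values of up to 0.0827.

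Ms4a1 (ENSMUSG00000024673, chromosome 19, 11249675 to 11266241, minus strand) encodes CD20, a membrane protein of B cells that is lost when they become plasma cells. The control libraries had 0.995, 10.5 and 2.52 CPM and the OA-AP libraries 0.363, 0.192 and 0.252 CPM, the latter from only 7, 4 and 5 counts. Control 2 was far above the other controls, and all controls were above all OA-AP libraries. The means were 4.67 ± 5.11 and 0.269 ± 0.0864 CPM (SD, n = 3 each), and the log2 fold change of -4.09 (SE 1.02, adjusted p = 0.0214) was the largest among the markers. Without control 2, which was the highest, it was -2.69 (adjusted p = 0.0154). The call was lost without the filter on low counts (adjusted p = 0.0842), without OA-AP 2 (0.0626) and without OA-AP 3 (0.0588).

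Ighm (ENSMUSG00000076617, chromosome 12, 113418558 to 113422730, minus strand), the constant region of the IgM heavy chain, is made by naive and innate-like B cells and in far larger amounts by cells that secrete IgM. It was the most abundant marker, at 199, 459 and 71.4 CPM in the controls and 41.0, 105 and 18.3 CPM in OA-AP. OA-AP 2 lay above control 3, so the groups overlapped. The means were 243 ± 198 and 54.8 ± 45.0 CPM (SD, n = 3 each), and the log2 fold change of -2.15 (SE 0.83, adjusted p = 0.0838) did not pass the test. It passed without OA-AP 2 (-3.04, adjusted p = 0.0404) and was -1.29 without control 2 (adjusted p = 0.246).

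**Figure D2:**
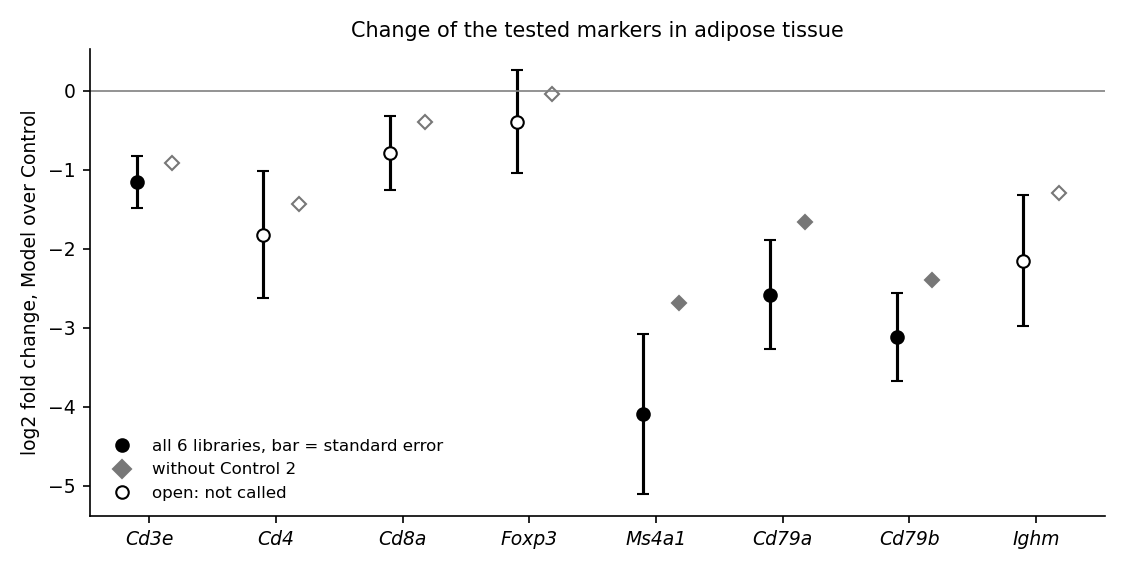
Log2 fold change (OA-AP over control) of the 8 tested markers in adipose tissue, as black circles with standard errors for all 6 libraries and as grey diamonds without control 2, filled where the gene was called. Ms4a1, Cd79a and Cd79b are filled in both, while Cd3e moves from -1.15, called, to -0.92, not called.

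Among the T cell genes, Cd3e (ENSMUSG00000032093, chromosome 9, 44998740 to 45009627, minus strand), the epsilon chain that every T cell receptor complex contains, was at 0.958, 1.47 and 0.952 CPM in the controls and 0.414, 0.432 and 0.656 CPM in OA-AP. These values rest on 26, 35 and 28 counts against 8, 9 and 13, and they did not overlap. The means were 1.13 ± 0.294 and 0.501 ± 0.135 CPM (SD, n = 3 each), and Cd3e fell by 1.15 on the log2 scale (SE 0.33, adjusted p = 0.0306), or 2.22-fold. The direction was the same in 12 of 12 alternatives that tested Cd3e, but the call held in only 5 of them. Among the settings that lost it were DESeq2 (adjusted p = 0.0556), the leaving out of any one control (0.0587, 0.0923 and 0.0605 for controls 1 to 3) and of OA-AP 1 (0.0909) or OA-AP 2 (0.0717).

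Cd3d (ENSMUSG00000032094, chromosome 9, 44981786 to 44987339, plus strand) encodes the delta chain of the complex and lies 11400 bases from Cd3e. It did not pass the filter on low counts and was at 0.479, 0.712 and 0.408 CPM in the controls and 0.207, 0.288 and 0.454 CPM in OA-AP. OA-AP 3 was above control 3. The means were 0.533 ± 0.159 CPM and 0.317 ± 0.126 CPM (SD, n = 3 each), with p = 0.2 in a two-sided exact permutation test that cannot go below 0.1 with these sample numbers.

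The coreceptor genes were spread more widely. Cd4 (ENSMUSG00000023274, chromosome 6, 124864692 to 124888221, minus strand), found on helper and regulatory T cells and on some dendritic cells, was at 2.69, 3.31 and 0.748 CPM in the controls and 0.0518, 0.961 and 0.858 CPM in OA-AP, where OA-AP 1 had 1 count. Control 3 was below OA-AP 2 and OA-AP 3. Its log2 fold change was -1.82 (SE 0.81, adjusted p = 0.121). Cd8a (ENSMUSG00000053977, chromosome 6, 71373427 to 71379173, plus strand), found on cytotoxic T cells and on a class of dendritic cells, was at 0.516, 0.879 and 0.374 CPM in the controls and 0.259, 0.240 and 0.505 CPM in OA-AP, from 5 to 21 counts per library. The groups overlapped, with a log2 fold change of -0.79 (SE 0.47, adjusted p = 0.222).

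Foxp3 (ENSMUSG00000039521, chromosome X, 7579676 to 7595243, plus strand), the transcription factor of regulatory T cells, was at 0.700, 0.879 and 0.272 CPM in the controls and 0.155, 0.865 and 0.353 CPM in OA-AP. The groups covered nearly the same range, and the log2 fold change was -0.39 (SE 0.65, adjusted p = 0.663). A change the size of that of Cd3e lies within 2 standard errors of this value, so it was not detectable at 3 to 21 counts per library. Foxp3 is also the marker that shares the most exon bases with other genes in GENCODE M21. Of its 4577 exon bases there, 590 are shared with Ccdc22, 373 with Gm36995 and 266 with Ppp1r3f, all on the opposite strand, and 853 with Flicr. The library kit does not mark strand, so reads on these bases cannot be assigned to one gene. The gene as deposited with the pancreas counts has 3989 bases and starts at 7579676, whereas GENCODE M21 starts it at 7573644. How much of the overlap lies within the counted gene was not tested. Cd3e shares 135 of 4080 exon bases with the antisense gene Gm48719, and the other 7 markers share no exon bases with another gene.

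Compared per kilobase of the gene length deposited with the pancreas counts, the control adipose levels ran from Ighm at 129 ± 105 CPM per kb (SD, n = 3) through Cd79a at 3.93 ± 3.30, Cd79b at 2.66 ± 1.82 and Ms4a1 at 0.755 ± 0.826 to Cd4 at 0.558 ± 0.331. Below them lay Cd3d at 0.294 ± 0.0875, Cd3e at 0.276 ± 0.0722, Cd8a at 0.162 ± 0.0716 and Foxp3 at 0.155 ± 0.0782 CPM per kb. All B cell genes were thus above all T cell genes in mean level. For Ms4a1 this did not hold in each library. In control 1 it was at 0.161 CPM per kb, below Cd4 (0.667), Cd3d (0.264), Cd3e (0.235) and Foxp3 (0.176). In controls 2 and 3 it was at 1.70 and 0.407 CPM per kb, above every T cell gene. The gap between neighbours was larger than either SD only from Ighm to Cd79a, from Cd79b to Ms4a1 and from Cd3e to Cd8a, and the other neighbours did not differ beyond their spread.

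To show the regions from which the called genes start, the bases before the gene are given for Cd79a and Cd3e, the called markers with an entry in the RefSeq promoter table of GRCm38.p6, which held 5 of the 9 members. Each runs 5′ to 3′ on the strand of its gene and ends at the base before the gene's first base. Capitals mark matches to the E-box CAGGTG or to the ETS core AGGAAG on either strand.
Cd79a, chr7:24897247-24897380, plus strand: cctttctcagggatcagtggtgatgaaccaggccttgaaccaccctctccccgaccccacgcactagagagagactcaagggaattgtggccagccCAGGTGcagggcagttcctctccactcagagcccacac
Cd3e, chr9:45009628-45009861, minus strand: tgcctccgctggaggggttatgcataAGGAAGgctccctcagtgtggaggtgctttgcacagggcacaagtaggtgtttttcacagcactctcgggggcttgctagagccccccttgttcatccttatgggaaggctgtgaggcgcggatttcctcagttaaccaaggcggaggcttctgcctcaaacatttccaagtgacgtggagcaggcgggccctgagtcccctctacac

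The stretch before Cd79a, 134 bases, held 1 E-box match, and that before Cd3e, 234 bases, held 1 ETS core match. In the whole 300-base windows, which run past the start of the gene, Cd79a had 1 match to each and Cd3e had 1 to the E-box and 2 to the ETS core. An E-box match was found in 20.2% and an ETS core match in 35.4% of all 32851 windows. Neither window matched ATTTGCAT for octamer factors (found in 1.7% of windows), TGTGGT for RUNX factors (16.8%) or CCGGAA for ETS factors (14.9%), searched on both strands. The ETS strings can share bases, and such matches describe the sequence and not a bound site.

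**Figure D3:**
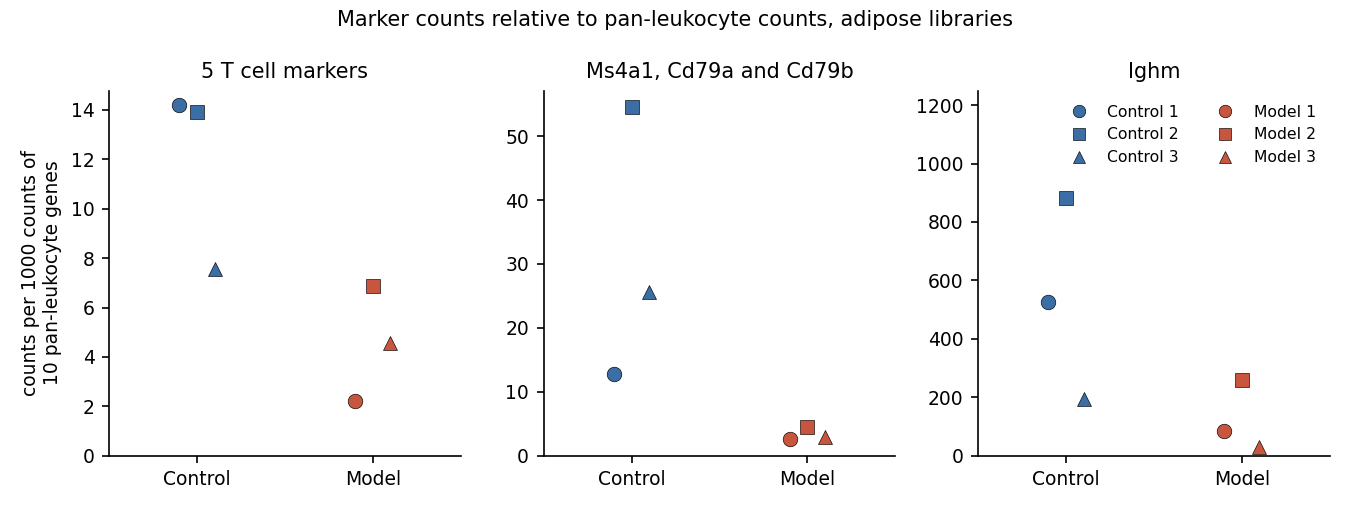
Counts of the T cell markers, of Ms4a1, Cd79a and Cd79b, and of Ighm per 1000 counts of 10 pan-leukocyte genes in each adipose library, on linear axes from 0. T cell markers lie at 7.54 to 14.2 in controls and 2.21 to 6.88 in OA-AP (Model), and the B cell markers without Ighm at 12.8 to 54.6 and 2.64 to 4.51.

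Marker counts were also set against leukocyte transcripts as a whole, as sums with no test. The 5 T cell markers together gave 14.2, 13.9 and 7.54 counts per 1000 counts of 10 pan-leukocyte genes in the controls and 2.21, 6.88 and 4.54 in OA-AP. The B cell markers without Ighm gave 12.8, 54.6 and 25.6 against 2.64, 4.51 and 2.92, and Ighm gave 528, 882 and 196 against 83.4, 260 and 29.5. The groups were apart for the first and second of these sums and overlapped for Ighm. Ptprc, which encodes the common leukocyte antigen CD45, was at 36.1, 58.7 and 31.0 CPM in the controls and 37.6, 27.2 and 49.8 CPM in OA-AP (log2 fold change -0.14, adjusted p = 0.746), and its direction turned without control 2 (0.19). The pan-leukocyte list had 1 gene called higher, Cd53 (1.34, adjusted p = 0.00745), and 0 called lower of 10 tested. Its sum was 365 to 521 CPM in the controls and 405 to 622 CPM in OA-AP, with none of its genes at 0. Myeloid genes moved the other way from the lymphocyte markers, with 9 of 13 tested called higher and 1 lower (median log2 fold change 1.24) and a sum of 824 to 989 CPM against 1257 to 1739 CPM. The neutrophil genes S100a8 (4.65, adjusted p = 0.000215), S100a9 (4.60) and Cxcr2 (5.30) and the integrin gene Itgam (1.24) rose. The part of these cells in the lower shares was not tested.

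Some of the other T cell genes were also lower. Of 25 further T cell genes 18 were tested, 8 were called lower and 0 higher, with a median log2 fold change of -1.10. Cd2, an adhesion receptor of T and NK cells, fell from 4.47 ± 2.40 to 0.618 ± 0.0497 CPM (SD, n = 3 each; log2 fold change -2.84, adjusted p = 0.00308). Trbc2, a constant region of the receptor beta chain, fell from 2.33 ± 0.616 to 0.570 ± 0.120 CPM (-2.02, adjusted p = 0.00365). The kinase gene Txk (-2.20) and the zeta chain gene Cd247 (-1.19) fell as well, and these 4 genes were also called without control 2. Cd3g, the gamma chain of the complex, fell by 1.31 on the log2 scale (adjusted p = 0.0296) and was not called without control 1 (adjusted p = 0.0587), control 2 (0.0794), OA-AP 2 (0.0690) or OA-AP 3 (0.0905). Trac, the constant region of the alpha chain, was at 1.29, 2.97 and 1.05 CPM in the controls and 0.570, 1.01 and 2.07 CPM in OA-AP (-0.53, adjusted p = 0.492), and its direction turned without control 2 (0.06). The number of T cell genes called lower was 6 without that library.

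The wider list of B cell genes was read next. Of 25 such genes 21 were tested, 14 were called lower and 0 higher, with a median log2 fold change of -1.82, and the number lower was 8 without control 2, 8 without control 3, and 6, 7 and 9 without OA-AP 1, 2 and 3. Igkc, the constant region of the kappa light chain, fell from 95.5 ± 82.5 to 12.0 ± 6.46 CPM (-2.99, adjusted p = 0.0165), the inhibitory receptor genes Cd22 (-2.78) and Cd72 (-1.60) fell, and so did Ighd, the IgD heavy chain of naive B cells (-2.46, adjusted p = 0.0222). Ighd was not called without control 3, OA-AP 1 or OA-AP 2 (adjusted p-values of up to 0.0610), Cd72 not without OA-AP 1 (0.0582), and Igkc not without the filter on low counts (0.0949). Cxcr5, the receptor that leads B cells into follicles, fell (-1.31, adjusted p = 0.0198) and was not called without control 2 (adjusted p = 0.0516), control 3 (0.0518) or OA-AP 3 (0.0686). Cr2, found on follicular dendritic cells and B cells, was not called (-1.40, adjusted p = 0.0792).

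Of 8 tested plasma cell genes 4 were called lower and 1 higher (median -3.02). Jchain, which joins IgM and IgA into polymers, was at 12.1, 41.1 and 8.50 CPM in the controls and 1.97, 2.59 and 1.31 CPM in OA-AP (-3.38, adjusted p = 0.0103), and was not called without the filter on low counts (adjusted p = 0.0604). Ighg2b fell from 3.52 ± 1.03 to 0.185 ± 0.191 CPM (-4.22, adjusted p = 0.00208). Igha was at 8.11, 3.39 and 5.37 CPM in the controls and 0, 1.39 and 6.51 CPM in OA-AP, so these groups overlapped (-1.10, adjusted p = 0.446). Irf4 (-2.95, adjusted p = 0.00148) is a factor of plasma cells that adipocytes and macrophages also express, and Sdc1, which rose (0.93, adjusted p = 0.0144), is expressed by epithelial and stromal cells as well as by plasma cells.

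**Figure D4:**
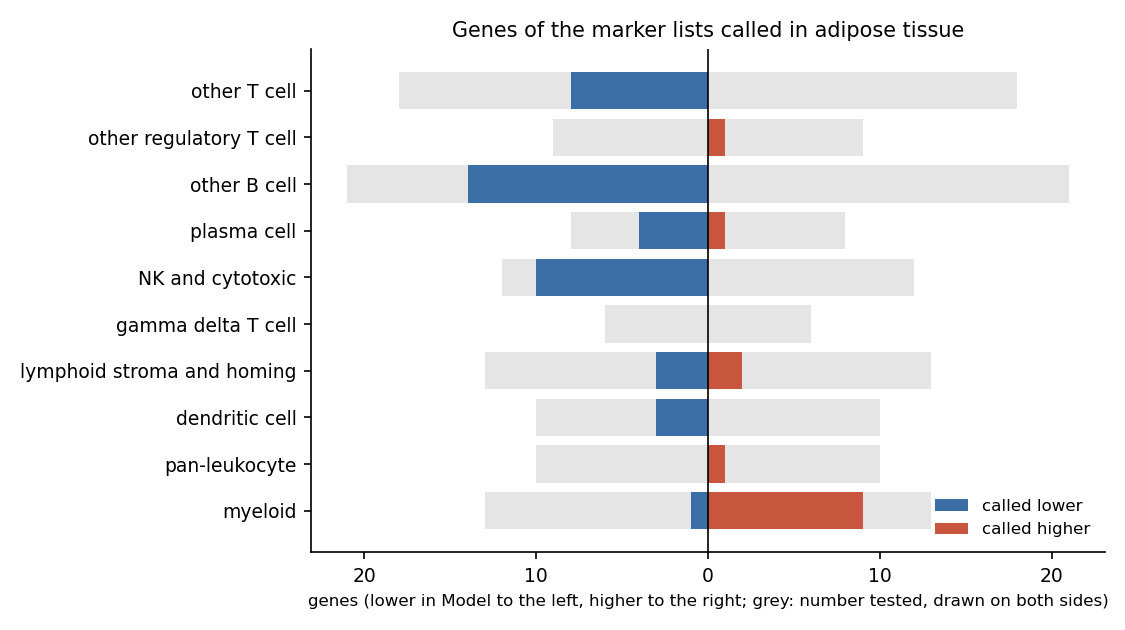
Number of genes of each list called lower (blue, to the left) or higher (red, to the right) in adipose tissue of OA-AP (Model) mice, over grey bars for the number tested. B cell genes reach 14 of 21 lower and NK and cytotoxic genes 10 of 12, while myeloid genes reach 9 of 13 higher.

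Genes of other lymphocytes were read in the same way. Of 12 tested NK and cytotoxic genes 10 were called lower and 0 higher (median -1.81), among them Ncr1, an NK cell receptor (-3.82, adjusted p = 0.00559), Il2rb (-2.27), Nkg7 (-2.63) and Klrk1 (-1.74). This number was 6 without control 1, without control 2 and without OA-AP 3, 4 with 10 counts in every library and 11 without a filter. Ncr1 had only 2, 1 and 2 counts in OA-AP. With 10 counts in every library, 4 further T cell genes and 5 further B cell genes were called lower. Without a filter these numbers were 8 and 9. Of 9 further regulatory T cell genes 0 were called lower and 1 higher, Il1rl1 (0.98, adjusted p = 0.0369), the IL-33 receptor that mast cells and other cells also carry, and it was not called without any one control (adjusted p = 0.0805, 0.0592 and 0.109) or without OA-AP 1 (0.0746) or OA-AP 3 (0.0695). Of 6 tested gamma delta T cell genes none was called in either direction (median -0.52). The sum of this list was 53.85 to 72.28 CPM in the controls and 36.99 to 47.8 CPM in OA-AP. DESeq2 called 2 of its genes lower, library totals alone 1, no filter 0 and a library left out 0 to 2. None was called higher in these settings. Of 10 tested dendritic cell genes 3 were called lower and 0 higher, Xcr1 (-1.46), Itgae (-1.49) and Siglech (-1.99), with a sum of 76.5 to 112 CPM in the controls and 81.7 to 91.2 CPM in OA-AP. Siglech was not called without control 2 (adjusted p = 0.0720), control 3, OA-AP 1 or OA-AP 2, and 2 genes were called lower without control 2. Their part in the values of Cd4 and Cd8a was not tested.

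Genes of lymphoid stroma and homing did not move together: 3 of 13 tested were called lower and 2 higher, with a median of 0.02 and a sum of 764 to 897 CPM in the controls and 942 to 1038 CPM in OA-AP. Ccl21a, a chemokine that draws T cells and dendritic cells into lymphoid tissue, fell from 37.5 ± 7.92 to 13.9 ± 4.43 CPM (-1.43, adjusted p = 0.00574), and Chst4, a sulfotransferase of high endothelial venules, fell from 10.7 ± 3.94 to 2.91 ± 1.11 CPM (-1.88, adjusted p = 0.00913). Ltbr, the lymphotoxin beta receptor of stromal and myeloid cells, rose (0.80, adjusted p = 0.00346). Cxcl13, the chemokine that draws B cells, was at 4.35, 11.5 and 6.63 CPM in the controls and 10.7, 133 and 8.02 CPM in OA-AP. Only OA-AP 2 was far above the controls, and the gene was not called (2.76, adjusted p = 0.0972). Ccl19 was at 0.258 to 0.816 CPM in the 6 libraries and did not pass the filter.

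In adipose tissue the acinar list had 0 genes called of 3 tested. Its sum was 9.04 to 8572 CPM in the controls, the highest being control 2, and 10.4 to 19.3 CPM in OA-AP. Prss2, a trypsinogen gene, and Cela1, an elastase gene, had control means of 204 ± 352 and 129 ± 208 CPM (SD, n = 3), and Cela1 turned from -3.44 to 0.39 without control 2. The part of this pancreatic RNA in the marker levels of control 2 was not tested, and the values without control 2 are given above. The erythroid list, a sign of blood in the tissue, had 2 of 6 genes called higher and 0 lower, with a sum of 402 to 558 CPM in the controls and 544 to 1008 CPM in OA-AP. The higher calls, Hba-a1 and Hbb-bs, were lost without control 2 (adjusted p = 0.0906 and 0.0886), without control 1, OA-AP 2 or OA-AP 3, with library totals and without the filter, and 5 genes were called without OA-AP 1. The adipocyte list had 1 of 10 called higher, Lep (2.39, adjusted p = 0.0299), and 1 lower, Plin1 (-1.47, adjusted p = 0.00378). Lep was not called without control 1 (adjusted p = 0.0696), control 2 (0.0701) or control 3 (0.0933).

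**Figure D5:**
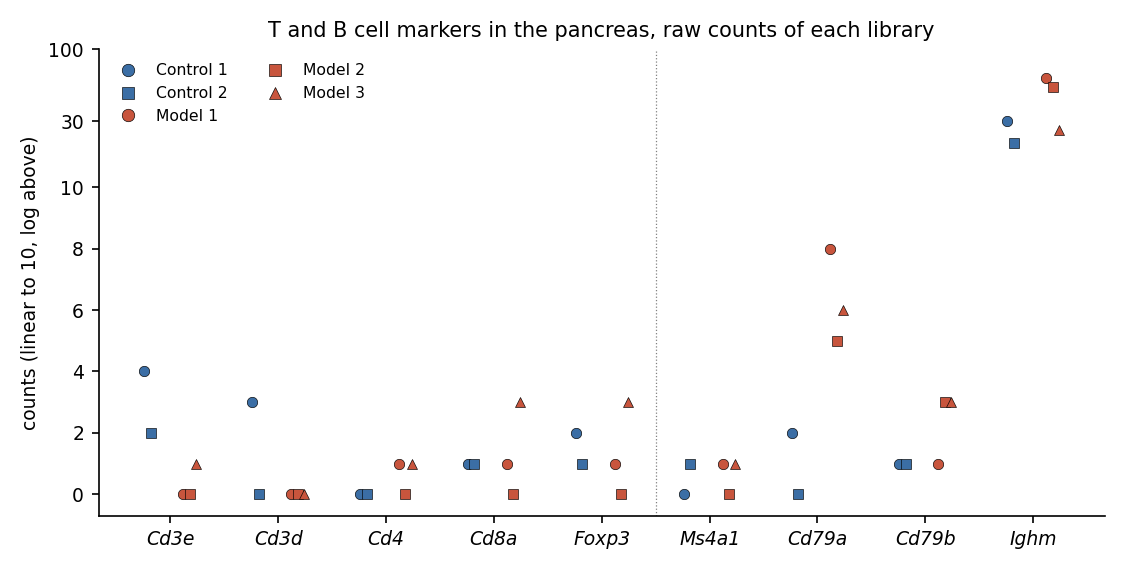
Raw counts of the 9 markers in each pancreas library (axis linear to 10 and logarithmic above), with the 2 controls in blue and the 3 OA-AP (Model) libraries in red. Ighm has 21 to 62 counts and the other 8 genes have 8 or fewer.

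The pancreas held few lymphocyte transcripts. Of the 9 markers only Ighm passed the filter on low counts, and 0 were called in either direction, while 29.8% of all 12884 tested genes were called. At an unadjusted p-value under 0.05 edgeR also found 0, and DESeq2 called 0. Ighm had 30 and 21 counts in the controls and 62, 53 and 26 in OA-AP, which gave 2.57 and 2.09 CPM against 3.25, 3.03 and 1.36 CPM. The groups overlapped, with 2.33 ± 0.339 CPM (SD, n = 2) and 2.54 ± 1.03 CPM (SD, n = 3) and a log2 fold change of 0.12 (SE 0.44, adjusted p = 0.853). The TMM factors differed between the groups, at 0.793 and 0.698 in the controls and 1.11 to 1.32 in OA-AP. With library totals alone the median change over the tested genes was 0.749 (log2) in place of 0.0385, and 92.0% in place of 54.5% of the calls were upward. Ighm was then at 0.85 (adjusted p = 0.167), and Igha, Igkc and Jchain stayed lower and called.

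Cd79a had 2 and 0 counts in the control pancreas and 8, 5 and 6 in OA-AP. All OA-AP libraries were above both controls, as in 32.9% of all tested genes, and the exact permutation test gave p = 0.1, the smallest it can give. The ratio of the summed counts, scaled for library size, was 3.70 with an exact 95% counting interval from 0.893 to 32.8. Cd3e moved the other way, with 4 and 2 counts in the controls and 0, 0 and 1 in OA-AP, which did not overlap either, as in 29.5% of tested genes with OA-AP lower (exact permutation p = 0.1). Its ratio was 0.0649, with a counting interval from 0.00141 to 0.535. These intervals cover counting error only and leave out the spread between mice.

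The remaining 6 markers were at the limit of detection. Cd3d had 3 and 0 counts in the controls and 0 in every OA-AP library, Cd4 had 0 in both controls and 1, 0 and 1 in OA-AP, and Ms4a1 had 0 and 1 against 1, 0 and 1. Cd8a and Foxp3 had 1 to 2 counts in the controls and 0 to 3 in OA-AP, and Cd79b had 1 and 1 against 1, 3 and 3. No library exceeded 3 counts for these genes, so no change was detectable at this depth and no fold is given.

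Among the wider lists in the pancreas, antibody genes gave the calls. Igha, the IgA heavy chain of mucosal plasma cells, had 19.1 and 11.1 CPM in the controls and 1.42, 1.09 and 0.940 CPM in OA-AP. The groups were far apart, and the log2 fold change was -3.71 (SE 0.31, adjusted p = 0.000206). Igkc fell from a mean of 12.8 to 3.41 CPM, with SDs of 5.16 (n = 2) and 0.440 (n = 3), by 1.91 on the log2 scale (adjusted p = 0.00179) and was 1 of 3 tested B cell genes and the only one of them called. Jchain fell from 2.78 ± 1.53 to 0.430 ± 0.184 CPM (-2.68, adjusted p = 0.00718) and was not called without control 1 (adjusted p = 0.135). In the plasma cell list 2 of 5 tested genes were called lower, and Sdc1 was called higher (3.79, adjusted p = 0.0120) but not without control 1 (0.0761) or control 2 (0.0707). Ighm, the IgM heavy chain, was not called beside them.

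The pancreas had 1 tested gene among the other T cell genes, Tcf7, a factor of naive T cells that epithelial cells can also express, and it rose from 2.15 ± 0.228 to 7.41 ± 1.57 CPM (1.77, adjusted p = 0.00300). Trbc2, Cd3g and Trac were below the filter, with group means of at most 0.663 CPM, as were Cd22, Cr2 and Ighd with means of at most 0.214 CPM. No NK and cytotoxic gene was tested, and 0 of 3 regulatory T cell genes were called. Over all tested pancreas genes 29.8% were called in either direction, and 54.5% of these calls were upward. Of 7 tested lymphoid stroma and homing genes 5 were called higher and 1 lower, Cxcl12 (-2.54, adjusted p = 9.15e-05). The number higher was 1 without control 1 and 0 without control 2. Among the higher ones Cxcr4 rose from 0.542 ± 0.203 to 3.11 ± 1.24 CPM (2.49, adjusted p = 0.00871) and Ltbr rose as well (1.03). Cxcl13 had 2 and 0 counts in the controls and 138, 91 and 24 in OA-AP (adjusted p = 0.0152), while Ccl19 and Ccl21a had 0 in every pancreas library. Ptprc was at 1.80 and 1.59 CPM against 1.21, 1.20 and 4.34 CPM, where only OA-AP 3 was higher (0.41, adjusted p = 0.654).

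Of the other lists in the pancreas, 0 of 8 pan-leukocyte genes, 0 of 2 dendritic cell genes and 0 of 5 erythroid genes were called, and Csf1r was lower (-1.16) among 12 myeloid genes, though not called without control 1 (adjusted p = 0.232), without OA-AP 1 (0.0623) or with library totals. The adipocyte list had 3 of 5 called higher, with a sum of 55.8 to 73.1 CPM in the controls and 162 to 292 CPM in OA-AP. The acinar list had 14 of 19 called lower and 1 higher, Prss2 and Cela1 not being among the calls. The part of these in the antibody gene values was not tested.

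Whether the change differed between the tissues was tested over all 11 libraries for the 9 markers, and Cd79a alone was called, against 20.6% of 17046 genes. Its change in the pancreas was higher than in adipose tissue by 4.46 as a log2 value (SE 1.46, adjusted p = 0.0488). Cd79b had 3.56 (SE 1.31, adjusted p = 0.0747) and Ighm 2.27 (SE 1.37, adjusted p = 0.290), and the other 6 had adjusted p-values from 0.148 to 0.882. These values rest on the few pancreas counts given above, and the one for Cd79a on 2 and 0 counts in the controls. In the pancreas alone 8 of the 9 markers, Cd79a among them, did not pass the filter, and they entered this test through their adipose counts.

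Likeness to the markers was described by Pearson's correlation of log2 CPM with the mean of 4 T cell genes (Cd3e, Cd3d, Cd4 and Cd8a) or of the 4 B cell genes. Over the 11 libraries, which differ by tissue as well as by group, the most alike of 14426 genes were Epsti1 (0.959), Iqsec3 (0.932), Rnase6 (0.931), Lyl1 (0.929) and Phf11b (0.924) for the T cell mean. For the B cell mean they were B430119L08Rik (0.938), Gm28438 (0.922), Tgtp2 (0.922), Tmem71 (0.916) and Cd2 (0.911). Within the 6 adipose libraries, which share control 2, the closest of 15357 genes were Parp11 (0.996), Fam69a (0.992), A530040E14Rik (0.989), Apol10b (0.986) and Grap2 (0.983) for the T cell mean. Mzb1 (0.995), a chaperone of antibody-secreting cells, and Stap1 (0.994), an adaptor of B cell receptor signalling, led for the B cell mean, followed by Gm8895, Kif2c and Serpina1a. All these are the highest of many correlations over few libraries, and how high such values run by chance was not tested.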

How the data were processed

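RNA-seq counts of 11 libraries were analysed. The authors passed 150-base paired reads through Trim Galore 0.6.6 and fastp 0.20.1, mapped them to GRCm38 with STAR and counted them with featureCounts 2.0.1, and the deposited values are raw counts per gene. The annotation release and strand setting are not given in the sources used here. Groups were taken from the labels. Each tissue was tested apart with edgeR 4.0.16 (filterByExpr, TMM, robust quasi-likelihood test, Benjamini-Hochberg adjustment over all tested genes), and the tissue by condition term over all libraries. Calls needed an adjusted p-value below 0.05 and a change of 1.5-fold or more. Common biological coefficients of variation were 0.19 (adipose tissue) and 0.214 (pancreas). SE is the log2 change over the root of the F statistic. Replicates differed beyond counting noise (lowest chi-square per degree of freedom 6.91). Genes below the filter were compared with exact permutation tests. Likeness used log2(CPM + 0.5).

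Named were all markers, up to 4 called genes with the smallest p-value of each list and tissue, Ptprc, Cd22, Cd3g, Trac, Trbc2, Igkc, Ighd, Igha, Jchain, Cr2, Cxcl13, Ccl19, Ccl21a, Prss2 and Cela1, and the 5 most alike genes whose mean log2 CPM was 0 or higher. A few other genes that the rule names are not reported here. The markers and lists were chosen with earlier results of these data known. Overlaps were read from GENCODE M21, promoters from RefSeq. Alternatives were DESeq2 1.42.0, its size factors, library totals, TMM without acinar genes, no filter or 10 counts in every library, a fold change of 2 or none, a replicate block, and each library left out.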

Additional observations from a re-analysis of the deposited data

Results flagged for a closer look

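In the main setting over all 11 libraries, the change of Cd79a was called different between the tissues. The estimate was 4.46 on the log2 scale, with the pancreas higher (SE 1.46, adjusted p = 0.0488 in edgeR's quasi-likelihood test). The 3 adipose OA-AP libraries were below all controls, and the 3 pancreas OA-AP libraries were above both controls, which had 2 and 0 counts. In the pancreas alone Cd79a did not pass the filter, and it entered the test over both tissues through its adipose counts. The counting interval of its pancreas ratio, 0.893 to 32.8, included no change. The call was lost with DESeq2's size factors (adjusted p = 0.0510), with a block for same-numbered libraries (0.0612) and in 9 of the 11 fits that left out a library, with adjusted p-values of up to 0.178 (without pancreas control 2). It held without adipose control 2 (3.59, adjusted p = 0.0446). The cause was not tested. Groups of 2 or 3 libraries are too small for a check of single outlying samples.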

How the results depend on the processing

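The markers' direction in adipose tissue was lower in OA-AP in 97 of 98 fits under alternatives, the exception being Foxp3 (0.0131 without OA-AP 1, range -1.23 to 0.0131 with a library left out). In place of 4 markers, 2 were called without a filter, 1 with 10 counts in every library, and 2 to 3 with a library left out. With 10 counts in every library, Cd79a, which was called, and Ighm were the only markers tested. Ighm gained a call without OA-AP 2. A fold change of 2 called 2231 genes in adipose tissue and 2463 in the pancreas, and library totals alone called 6345 in the pancreas, where leaving out a library gave 1495 to 4268. In adipose tissue library totals moved the median of all genes from -0.00919 to -0.16 and the higher share of calls from 48.7% to 32.8%. For the tissue difference 6525 genes were called with library totals, and 2333 to 3651 with a library left out. For its markers, 0 were called with DESeq2's size factors, 2 with library totals and 0 to 2 with a library left out.

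Within each tissue, deviations of same-numbered control and OA-AP libraries from their group means had correlations from -0.175 to 0.0539. Groups of 2 or 3 libraries are too small for this to decide whether samples were paired. Same-numbered libraries of different tissues were not compared. With the replicate block 4 markers and 3477 genes were called in adipose tissue, Ighm being called (adjusted p = 0.00161) and Cd3e not (0.0672), 0 and 4097 in the pancreas, and 1 marker, Ighm, and 2155 genes for the tissue difference. Ptprc in the pancreas turned to -0.495 under the block and -0.544 without OA-AP 3, and was 0.706 without OA-AP 1.

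Other reversals were in changes that were not called. With a library left out, adipose Trac ranged from -1.14 to 0.0618, Ptprc from -0.37 to 0.19 and Cela1 from -3.99 to 0.391, each highest without control 2, and Ptprc was 0.0621 without OA-AP 2. In the pancreas Prss2 was 0.349 and Cela1 0.145 with library totals, and Ighm -0.0138, -0.112 and -0.0234 without control 2, OA-AP 1 and OA-AP 2 (up to 0.375 without OA-AP 3). For the tissue difference Foxp3 was 0.296 with library totals, 0.374 without adipose OA-AP 2 and 0.0173 without pancreas OA-AP 2 (lowest -1.85), Cd3d ranged from -6.27 to 0.713 and Cd8a from -0.881 to 0.99. The cause of these was not tested. With a pancreas control left out, the lone control is assumed to vary like the other libraries. In the pancreas depth limits 8 of the 9 markers.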
